A study of Homo sapiens with 16 samples.

Results

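K1 is an established human papillary thyroid carcinoma cell line, and the data described here are its mRNA after 24 h with both drugs of the study against vehicle. The members were fixed by their labels: 2 libraries of K1 cells given nutlin-3a (10 μM) together with GSK2830371 (25 μM), and 2 libraries of K1 cells given DMSO (0.2%), which is 4 of the 16 libraries of the series. The other 4 K1 libraries, 2 with nutlin-3a alone and 2 with GSK2830371 alone, entered the same fit, and 8 libraries of a second papillary thyroid carcinoma line, TPC1, were used only where the lines were compared. No gene was deleted or added in either line, each line is a single established culture, and the study's methods describe replicates as independently prepared, while the labels do not say so for each library.

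Nutlin-3a occupies the pocket of MDM2 that binds p53 and so keeps p53 from being marked for degradation. GSK2830371 is an allosteric inhibitor of PPM1D, a phosphatase that removes activating phosphates from p53 and from the kinases that act on it. p53 is a transcription factor that raises genes of growth arrest, DNA repair and death, and through p21 and the DREAM repressor complex it lowers genes of the cell cycle. The integrated stress response (ISR) is a separate programme in which phosphorylation of eIF2α slows general translation while ATF4, the transcription factor at its centre, is made and turns on genes of amino acid supply and stress. The comparison asks what state K1 cells reached when both repressors of p53 were inhibited.

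The 8 K1 libraries held between 28888686 and 37161241 gene counts each, and the 5 most abundant genes took 9.47% to 10.3% of the counts in every one. Between the 2 libraries of a group, the median coefficient of variation over genes of at least 1 CPM (counts per 1e6 counts, with TMM-scaled library sizes) was 3.73% in both the DMSO and the combination group. The thyroid transcription factors PAX8 and FOXE1 were detected at 794 and 750 CPM (PAX8) and 28.9 and 29.1 CPM (FOXE1) in the DMSO libraries, whereas NKX2-1, another regulator of thyroid identity, stood at 0.114 and 0.189 CPM. TSHR was below the limit for testing, and TG, the precursor of thyroid hormone, stood at 2.80 and 2.78 CPM, so these defining thyroid markers were absent or low. Of 7 blood cell genes and 5 endothelial genes looked up, 2 and 3 were expressed enough to be tested; the pan-leukocyte gene PTPRC was not among them. Summed over the tested blood cell genes, the level was 68.5 and 58.5 CPM in DMSO and 63.9 and 70.7 CPM in the combination. CPM is not corrected for gene length, so levels are compared below only within a gene.

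The combination changed a large share of the K1 transcriptome in both directions. A gene was called raised or lowered where edgeR's quasi-likelihood test gave a Benjamini-Hochberg adjusted p below 0.05 and the fold change passed 1.5. Of 15900 genes tested, 1211 (7.62%) were raised and 1287 (8.09%) were lowered. Raised genes together took 2.79% and 2.82% of the CPM in the DMSO libraries and 5.56% and 5.66% in the combination libraries, and lowered genes went from 7.75% and 7.56% to 3.84% and 3.91%. Changes past 2-fold were found for 505 raised and 646 lowered genes, and past 8-fold for 88 and 36. The median level of raised genes was 3.79 CPM in DMSO and 7.64 CPM in the combination, and that of lowered genes 24.2 and 10.1 CPM. Over all genes tested it was 17.6 and 16.7 CPM. In the higher of the 2 groups, 202 raised and 98 lowered genes held under 1 CPM. Choosing genes by the direction of change itself sets their DMSO levels apart, so the sets were not compared by level. The median log2 fold change of all tested genes was 0.01, which is the background for the list medians given below.

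**Figure D1:**
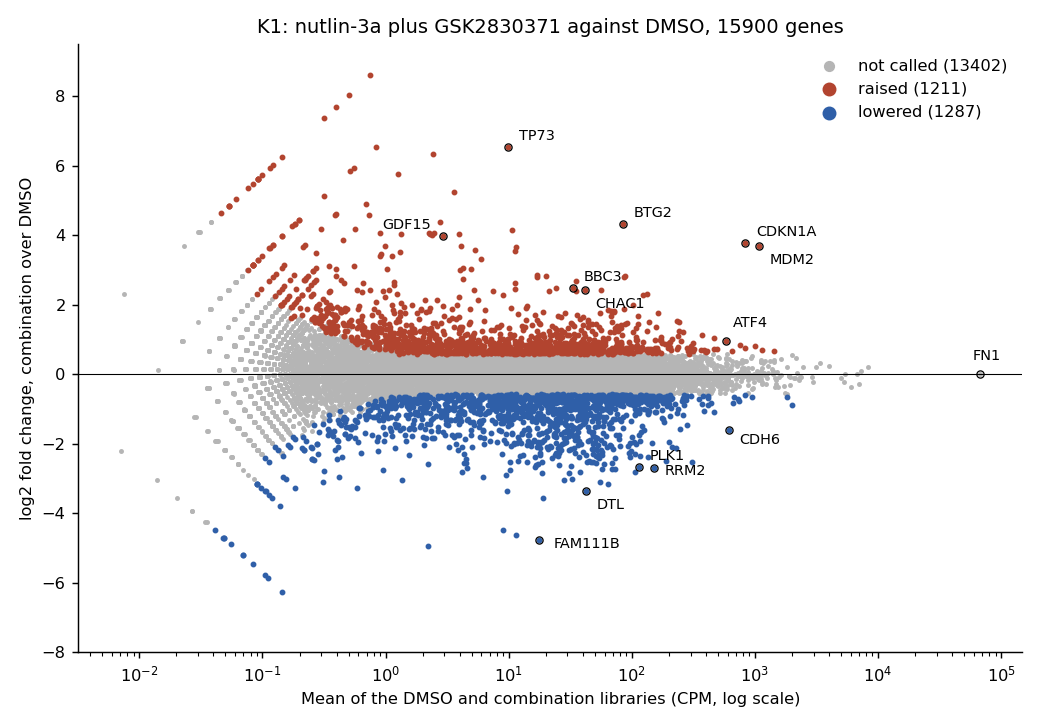
Fold change of each of the 15900 tested genes in K1 (vertical axis, log2, combination over DMSO) against its mean level over the DMSO and combination groups (horizontal axis, CPM, log scale); red points were raised, blue points lowered and grey points not called. CDKN1A and MDM2 combine high level with large increases, FAM111B lies at -4.78, and FN1, the gene with the most counts, lies at 0.00.

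The largest increases among genes of at least 5 CPM included several known p53 targets. TP73, a p53 relative (chromosome 1, 3569080 to 3652765, GRCh37), rose from 0.143 and 0.270 CPM to 18.6 and 20.6 CPM, a 92.6-fold change on the fitted scale. BTG2, an antiproliferative factor, rose 19.9-fold, INPP5D, a phosphoinositide phosphatase, went from a mean of 0.456 to 7.51 CPM, and GDF15, a secreted stress cytokine, rose 15.8-fold. CDKN1A, which encodes the CDK inhibitor p21 (chromosome 6, 36644237 to 36655114), rose from 111 and 118 CPM to 1529 and 1570 CPM. MDM2, described below, is also of this group, which further held DSC3, a desmosomal cadherin, the chemokine CCL3, the nectin PVRL4, the cadherin CDH10 and the small GTPase RRAD, with log2 fold changes between 3.58 (RRAD) and 5.25 (DSC3).

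The 12 largest decreases among genes of at least 5 CPM included several of the G1/S transition and of replication. FAM111B, a protease linked to replication (chromosome 11, 58874658 to 58894885), fell from 30.5 and 37.99 CPM to 1.21 and 1.27 CPM, which is 27.6-fold lower. CCNE2, the cyclin that starts S phase with CDK2, fell from 19.99 and 23.8 CPM to 0.898 and 0.876 CPM. ZNF367, WDR76, DTL, BARD1, LMNB1, HJURP, CDT1, CLSPN, E2F8 and NEIL3 made up the rest, with log2 fold changes from -4.50 (ZNF367) to -2.91 (NEIL3). LMNB1, the lamin of the nuclear envelope whose loss is a common feature of senescent cells, went from 118 and 115 CPM to 12.3 and 13.7 CPM.

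The feedback genes MDM2 and PPM1D rose, and so did the p53 relative TP73. MDM2 (chromosome 12, 69201957 to 69239324), the E3 ligase that nutlin-3a blocks, was measured at 155 and 157 CPM in DMSO and at 1889 and 2102 CPM in the combination (log2 fold change 3.68 ± 0.07 SE, edgeR adjusted p = 8.26e-13). Its level with nutlin-3a alone was 1262 and 1313 CPM, and the combination was higher than that by 0.63 ± 0.06 on the log2 scale (edgeR adjusted p = 6.75e-05). PPM1D, the second drug's target and itself a p53 target, showed 21.0 and 22.6 CPM in DMSO and 40.4 and 46.4 CPM in the combination (edgeR adjusted p = 7.23e-07). Nutlin-3a alone gave 50.8 and 58.2 CPM of PPM1D, so that the combination libraries lay below those of nutlin-3a, by a difference of -0.33 that did not reach 1.5-fold (edgeR adjusted p = 0.0195). MDM4, the other repressor of the family, was at 31.5 and 29.5 CPM in DMSO and 31.9 and 35.9 CPM in the combination, whose ranges do not overlap although the difference missed the threshold (edgeR adjusted p = 0.136). Of the 9 tested genes of the p53 family and its repressors, 4 were raised (TP73, MDM2, PPM1D and CCNG1) and 0 were lowered.

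Targets of p53 were raised in each of 4 lists by role. Of the 12 tested targets of growth arrest, 9 were raised and 0 lowered, with a median log2 fold change of 1.32. Besides CDKN1A and BTG2, GADD45A, a damage-induced regulator, rose from a mean of 40.8 to 162 CPM, and ZMAT3, an RNA-binding protein, from 120 and 122 CPM to 340 and 357 CPM. Of the 17 tested targets of apoptosis, 14 were raised and 0 lowered (median 1.05), led by TP53INP1 at 2.82 and BBC3 at 2.48. Of the 27 targets of metabolism and other roles, 21 were raised and 0 lowered (median 1.25); ABCA12, a lipid transporter, and ACER2, an alkaline ceramidase, had log2 fold changes of 4.06 and 3.53, and FDXR, which supplies electrons to mitochondrial P450 enzymes, went from 23.2 and 20.9 CPM to 153 and 151 CPM. The 8 targets of DNA repair were mixed: RRM2B, XPC, POLH, DDB2 and REV3L rose, while FANCC, of the Fanconi core complex, fell by 1.18.

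Most p53 targets were not called different from nutlin-3a alone, although the medians of their lists lay slightly above it. List medians with nutlin-3a alone against the same DMSO libraries were 1.06 (growth arrest), 0.89 (apoptosis) and 0.98 (metabolism and other roles), and with GSK2830371 alone 0.25, 0.12 and 0.22. In the direct test of the combination against nutlin-3a, where 184 of all genes (1.16%) were higher and 242 (1.52%) lower, the counts of higher genes were 1 of 12, 1 of 17 and 3 of 27 in these lists. These were CDKN1A (0.60 on the log2 scale), PMAIP1 (0.78), GDF15 (2.03), ACER2 (0.83) and SESN2 (0.78). The list medians in this direct test were 0.16, 0.18 and 0.17, against 0.0044 over all genes. A call needs a change past 1.5-fold, so smaller differences are not in these counts. Against GSK2830371 alone, 1002 of all genes (6.3%) were higher and 1073 (6.75%) lower in the combination, with CDKN1A higher by 2.75 and PLK1, a mitotic kinase, lower by 2.40 on the log2 scale.

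Death-promoting genes of the BCL2 family were raised in part, and so was a survival gene. BBC3, which encodes the BH3-only protein PUMA, rose from 10.7 and 9.41 CPM to 54.0 and 57.9 CPM (log2 fold change 2.48 ± 0.09 SE, edgeR adjusted p = 2.55e-10). Nutlin-3a alone gave 40.9 and 47.4 CPM of BBC3, and the difference of 0.34 from nutlin-3a did not reach 1.5-fold. PMAIP1, which encodes the BH3-only protein NOXA, was measured at 21.3 and 19.5 CPM in DMSO, 23.1 and 20.9 CPM with nutlin-3a, 16.5 and 19.4 CPM with GSK2830371, and 36.2 and 39.4 CPM in the combination. The PMAIP1 libraries of the combination lay above those of all 3 other treatments, by 0.78 on the log2 scale over nutlin-3a (edgeR adjusted p = 0.000159). BAX rose by 0.68, and 6 of the 9 tested death-promoting members were not called. Among the survival genes BCL2L1 (BCL-XL) rose by 1.01 and BCL2 fell by 1.00. Of 21 death receptor, adaptor and caspase genes, 7 were raised and 0 lowered: the TRAIL receptors TNFRSF10A, TNFRSF10B and TNFRSF10D, FAS, CASP10, APAF1 and CFLAR, the last of which restrains caspase-8. FAS went from 45.6 and 44.4 CPM to 117 and 121 CPM.

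Transcription factors of the ISR rose in part in the combination, and most were higher than with nutlin-3a alone. Of 9 tested, 5 were raised (ATF3, NUPR1, ATF4, DDIT3 and TRIB3) and 0 lowered, with a median log2 fold change of 0.66. Called higher than with nutlin-3a alone were 7, fewer in some alternative fits, beside 1.16% of all genes. ATF4 was measured at 415 and 379 CPM in DMSO, 333 and 344 CPM with nutlin-3a, 433 and 466 CPM with GSK2830371, and 749 and 782 CPM in the combination. The combination libraries were thus above all others, with a log2 fold change of 0.95 ± 0.06 over DMSO (edgeR adjusted p = 2.71e-08) and 1.18 over nutlin-3a (edgeR adjusted p = 3.02e-07). ATF4 is controlled mainly at translation, which these mRNA data do not measure. DDIT3, which encodes the pro-apoptotic factor CHOP, stood at 13.4 and 13.1 CPM in DMSO, 13.8 and 14.1 CPM with nutlin-3a, 11.5 and 13.5 CPM with GSK2830371, and 25.0 and 24.2 CPM in the combination. ATF3 was low throughout, at 0.627 and 1.29 CPM in DMSO and 4.27 and 4.17 CPM in the combination (edgeR adjusted p = 7.42e-05).

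**Figure D2:**
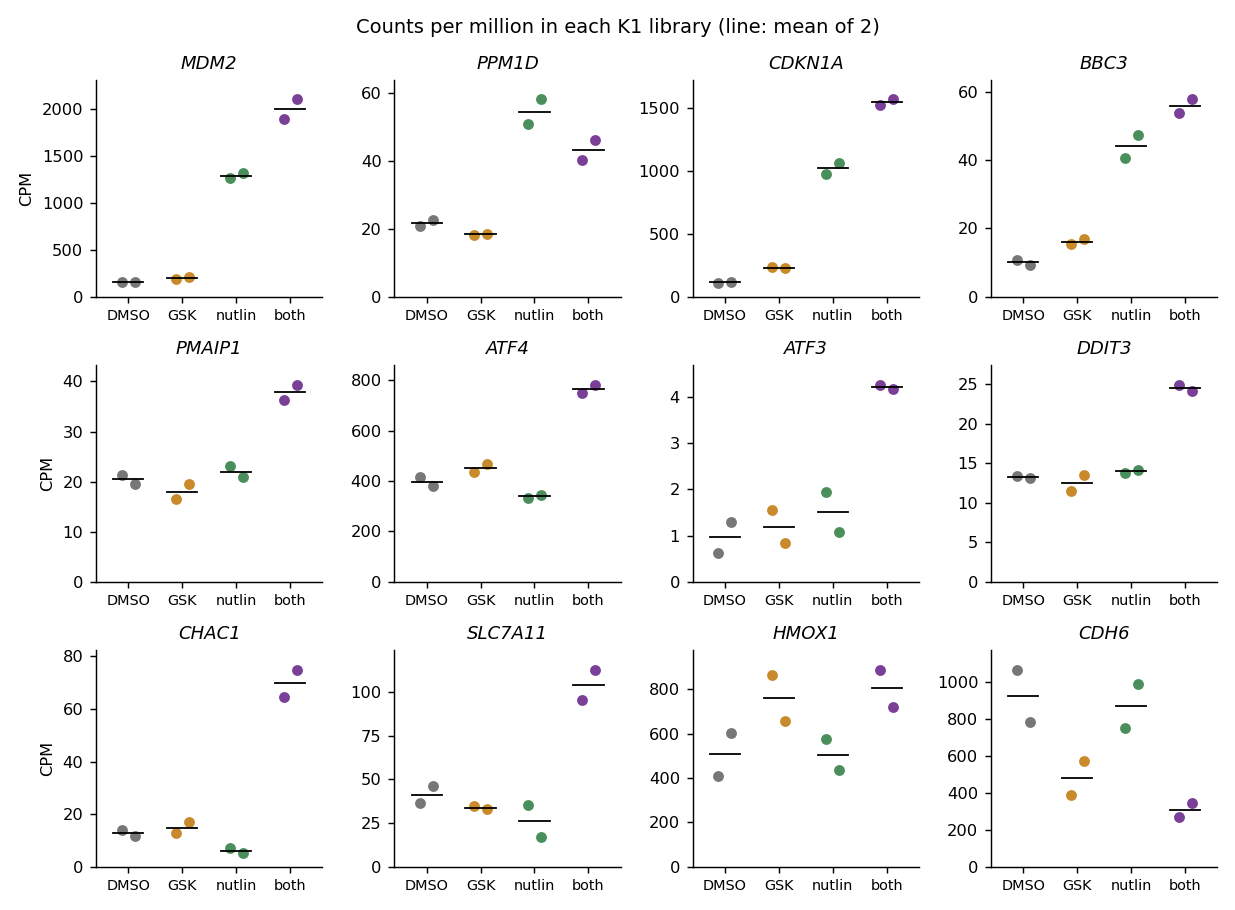
Level of 12 genes in each of the 8 K1 libraries (vertical axis, CPM, starting at 0; one point per library, the line is the mean of 2) after DMSO, GSK2830371 (GSK), nutlin-3a or both drugs. MDM2, CDKN1A and BBC3 are already high with nutlin-3a, whereas ATF4, DDIT3, CHAC1 and SLC7A11 stand above the other 3 treatments only with both drugs, and CDH6 is lowest with both.

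CHAC1, SLC7A11 and MTHFD2, which ATF4 is known to control, fell with nutlin-3a alone and rose with both drugs, each against the same DMSO libraries. With nutlin-3a the log2 fold changes were -1.10, -0.68 and -0.81 (edgeR adjusted p = 0.000175, 0.0337 and 0.000572). Nutlin-3a against DMSO was not refitted in the alternatives. CHAC1, which degrades glutathione (chromosome 15, 41245160 to 41248710), was at 14.1 and 11.8 CPM in DMSO, 7.03 and 5.06 CPM with nutlin-3a, 12.98 and 16.9 CPM with GSK2830371, and 64.7 and 74.9 CPM in the combination. Its log2 fold change over DMSO was 2.43 ± 0.13 (edgeR adjusted p = 7.22e-09), and over nutlin-3a it was 3.54. SLC7A11, the cystine importer, went from 36.5 and 46.0 CPM in DMSO to 95.3 and 113 CPM, with 35.1 and 16.8 CPM for nutlin-3a alone. The fall of SLC7A11 with nutlin-3a thus rested largely on the library at 16.8 CPM, as the other lay close to a DMSO library. ADM2, a secreted peptide of the adrenomedullin family, rose by 1.76 and CTH, the enzyme that makes cysteine from cystathionine, by 1.35. Of the 8 tested genes of glutathione degradation, transsulfuration and synthesis, CHAC1 and CTH were raised. CHAC2 (-0.69) and GGCT (-0.63) were lowered, the call of GGCT being lost in some alternatives. MTHFD2, a mitochondrial folate enzyme, was at 104 and 128 CPM in DMSO, 79.2 and 53.3 CPM with nutlin-3a and 178 and 178 CPM in the combination, so that its increase of 0.62 over DMSO was smaller than the 1.43 over nutlin-3a. Without DMSO replicate 1 the MTHFD2 difference from DMSO was 0.48 (edgeR adjusted p = 0.0251), below the 1.5-fold limit.

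Amino acid supply rose only in part. Of 18 amino acid transporters, 5 were raised and 0 lowered (median 0.23). Higher than with nutlin-3a alone were 9, fewer in some alternative fits, beside 1.16% of all genes. SLC3A2, the heavy chain shared by several transporters, rose from a mean of 172 to 331 CPM. SLC1A1, a glutamate transporter, was at 5.30 and 4.31 CPM in DMSO, 10.02 and 11.9 CPM with GSK2830371 alone and 9.35 and 9.85 CPM with both drugs. Of 20 cytosolic aminoacyl-tRNA synthetases, which charge tRNAs and are textbook ATF4 targets, 0 were raised and 0 lowered (median 0.01, range -0.51 to 0.55) by edgeR; at an unadjusted p under 0.05 there were 12, of which 7 lay above 0, and DESeq2 and the other alternatives called 0 to 2. Against nutlin-3a 0 were called (12 at an unadjusted p under 0.05, and 0 to 4 in the alternatives). Of 11 serine, glycine and one-carbon enzymes MTHFD2 was raised while MTHFD1 and SHMT1 fell by 1.16 and 1.08. ASNS, the asparagine synthetase, rose by 0.71, a call lost with DESeq2 (adjusted p = 0.101) and without DMSO replicate 1 (0.44, edgeR adjusted p = 0.113) or combination replicate 1 (0.59, edgeR adjusted p = 0.0942).

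Of 9 brakes of the growth kinase mTORC1, 4 rose and 0 fell. SESN2 went from 44.4 and 45.9 CPM to 219 and 224 CPM, with 128 and 130 CPM for nutlin-3a alone. SESN1 and SESN3 rose by 2.40 and 1.45, at levels that did not differ from nutlin-3a beyond the threshold (0.29 and 0.02). DDIT4 (REDD1) rose from 42.8 and 31.0 CPM to 125 and 144 CPM and was higher than with nutlin-3a by 1.35.

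Among the regulators of eIF2α, EIF2AK1, which encodes the heme-regulated kinase HRI, was measured at 102 and 96.9 CPM in DMSO and 115 and 121 CPM in the combination (log2 0.25 ± 0.06, edgeR adjusted p = 0.00269, below the 1.5-fold limit). EIF2AK3, which encodes the kinase PERK, rose by 0.68 and PPP1R15A, the stress-induced phosphatase subunit that reverses the phosphorylation, by 0.79. The other 12 of the 14 genes were not called. HMOX1, the heme oxygenase, stood at 411 and 605 CPM in DMSO, 577 and 435 CPM with nutlin-3a, 864 and 659 CPM with GSK2830371, and 889 and 722 CPM in the combination. HMOX1 passed the test against DMSO (0.67, edgeR adjusted p = 0.00640) but not under DESeq2 (adjusted p = 0.0602), nor without DMSO replicate 1 (0.41, edgeR adjusted p = 0.0692) or combination replicate 1 (0.50, edgeR adjusted p = 0.0800), and its level in the combination overlapped that with GSK2830371 alone. Of 16 heme genes, ABCB6, SLC48A1 and HMOX1 were raised. Of 20 genes of the NRF2 antioxidant pathway 5 were raised, among them AKR1C1 (0.83) and TXNRD1 (0.64, and 0.48 and not called without DMSO replicate 1), with 2 to 6 raised over the alternatives, while NQO1, a standard NRF2 target, was at 171 and 191 CPM in DMSO and 194 and 189 CPM in the combination. The ferritin chains FTH1 and FTL changed by 0.19 and 0.33, and of 10 iron genes only the iron exporter SLC40A1 was raised.

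**Figure D3:**
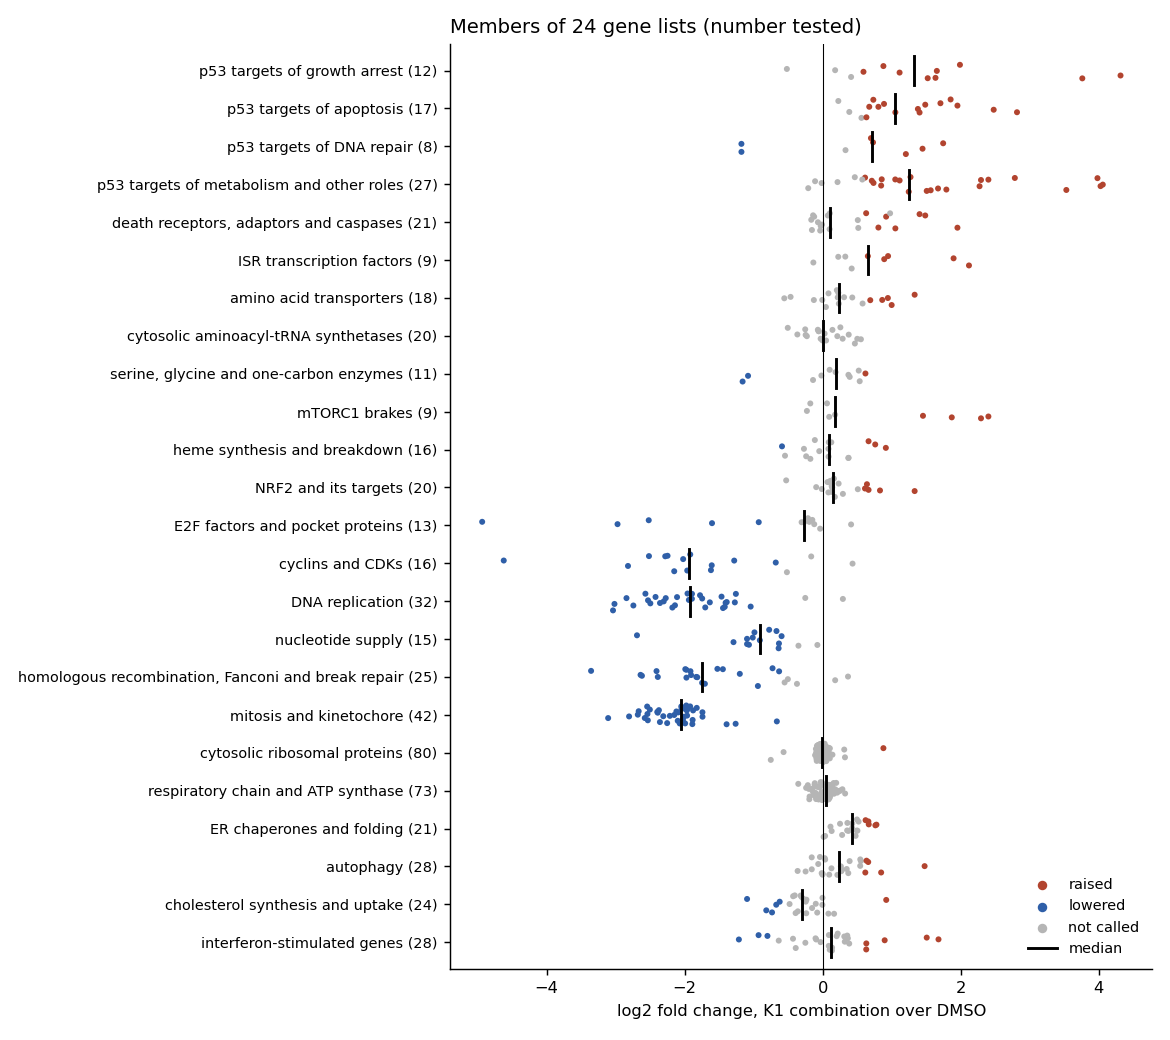
Fold change of each tested member (horizontal axis, log2, K1 combination over DMSO) of 24 gene lists (rows, with the number tested); red points were raised, blue lowered, grey not called, and the black line is the list's median. The 4 lists of p53 targets lie mostly to the right, with 2 lowered repair genes as the exception, and the lists of replication and mitosis lie to the left with medians of -1.92 and -2.06.

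Many genes of the cell cycle fell. Of 13 E2F and pocket protein genes, 5 were lowered (E2F2, E2F8, E2F1, RBL1 and TFDP1) and 0 raised. E2F1, an activator of S phase genes, went from 70.3 and 77.05 CPM to 13.6 and 12.1 CPM, and its difference from nutlin-3a alone was 0.01. E2F2 was at 147 and 165 counts in the DMSO libraries and at 6 and 3 counts in the combination libraries. Of 16 cyclin and CDK genes, 13 were lowered and 0 raised; CCND1 (cyclin D1), CCND3 and CDK6 were not called, and CCND1 stood at 503 and 553 CPM in DMSO and 730 and 696 CPM in the combination. CDKN2C, another CDK inhibitor, fell by 1.80 while CDKN1A rose.

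Replication genes fell with the combination, and all but 1 were not called different from nutlin-3a alone. Of 32 tested, 30 were lowered (median -1.92, against -1.78 for nutlin-3a and -0.15 for GSK2830371), and the exceptions were PCNA and LIG1. MCM3, a subunit of the replicative helicase, fell from 116 and 122.8 CPM to 18.1 and 17.6 CPM, and CDT1, which loads that helicase, from 48.2 and 52.3 CPM to 5.92 and 6.32 CPM. CDT1 was the 1 member of the list that was called lower than with nutlin-3a alone (-0.59). PCNA, the sliding clamp and itself a p53 target, was at 171 and 180 CPM in DMSO and 213 and 217 CPM in the combination. Nucleotide supply followed, with 13 of 15 genes lowered (median -0.91), RRM2, the ribonucleotide reductase subunit of S phase, falling from 258 and 267 CPM to 39.1 and 42.2 CPM while its p53-driven paralog RRM2B rose. Homologous recombination and Fanconi genes were lowered in 20 of 25 cases (median -1.75), including BARD1, EXO1, BRIP1 and RAD54L, and ATM and ATR were not called.

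Mitotic genes were mostly lower with both drugs than with nutlin-3a alone. All 42 tested mitosis and kinetochore genes were lowered, with a median of -2.06 in the combination, -1.14 with nutlin-3a and -0.44 with GSK2830371, and 35 of 42 were called lower than with nutlin-3a alone against 1 of 32 replication genes. PLK1, the kinase that drives mitotic entry, was at 215 and 181 CPM in DMSO, 79.0 and 118 CPM with nutlin-3a, 146 and 180 CPM with GSK2830371, and 27.7 and 34.0 CPM in the combination (log2 fold change -2.68 ± 0.17 SE, edgeR adjusted p = 2.46e-08; against nutlin-3a -1.68, edgeR adjusted p = 6.63e-05). HJURP, the chaperone that places the centromeric histone CENPA, fell from 103 and 95.4 CPM to 10.996 and 11.97 CPM, with 32.2 and 42.1 CPM for nutlin-3a alone. CCNA2 and CCNB1, the cyclins of S phase and mitosis, were lower than with nutlin-3a by 1.55 and 1.14 on the log2 scale, whereas CCNE2 and E2F1, which act earlier, were not called against nutlin-3a. The 7 members of the mitosis list without a call against nutlin-3a were MAD2L1, CENPI, CENPK, ECT2, PTTG1, FOXM1 and MYBL2. Of 33 kinesins 13 were lowered, led by KIF23, KIF18B and KIF20A, and 11 were lower than with nutlin-3a. In the alternative fits the count of mitosis genes below nutlin-3a ranged from 25 to 37, and it was 0 to 2 for the replication genes.

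**Figure D4:**
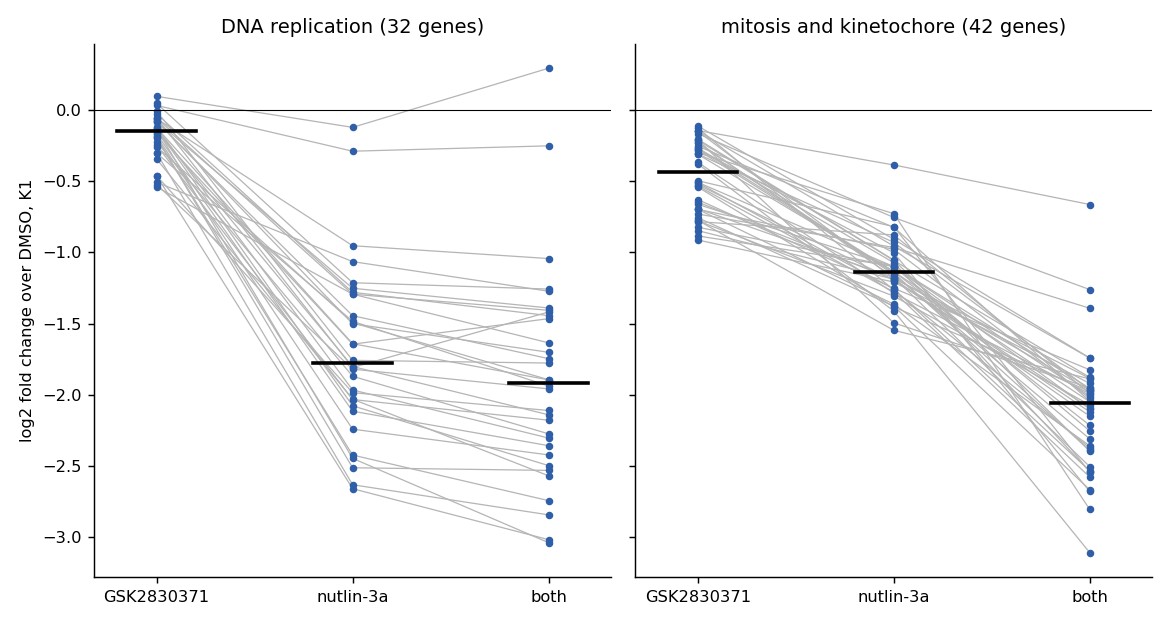
Fold change over DMSO (vertical axis, log2) of each replication gene (left, 32 genes) and each mitosis gene (right, 42 genes) in K1 after GSK2830371, nutlin-3a or both; grey lines join a gene's values and black bars are medians. Replication genes sit at -1.78 with nutlin-3a and -1.92 with both drugs, and mitosis genes go from -1.14 to -2.06; the 3 sets of values share the DMSO libraries.

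Some promoters of these genes hold the letters of known cell cycle elements, and 4 are shown. In the mitosis and in the replication list they belong to the 2 lowered genes with a match that fell most. Genes of 1 chromosome were left out of this choice. The CHR element (TTTGAA) is the site through which the DREAM and MuvB complexes act on G2/M genes, and E2F sites (TTTGGCGC or TTTCGCGC) mark genes of G1/S. Each motif was searched on both strands of the 250 bases before the RefSeq gene start (GRCh38.p14), and stretches are written 5′ to 3′ on the gene's strand, with capitals for the bases of matches, which overlap in MCM6.
HJURP (CHR, chr2:233854612-233854671, minus strand): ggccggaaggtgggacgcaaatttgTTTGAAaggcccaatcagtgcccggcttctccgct
PIF1 (CHR, chr15:64825648-64825707, minus strand): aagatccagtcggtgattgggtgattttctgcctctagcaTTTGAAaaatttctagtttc
MCM7 (E2F, chr7:100101398-100101457, minus strand): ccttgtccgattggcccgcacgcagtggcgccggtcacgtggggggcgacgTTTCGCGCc
MCM6 (E2F, chr2:135876561-135876620, minus strand): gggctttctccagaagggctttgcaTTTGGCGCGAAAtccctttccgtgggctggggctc
The CHR letters were present in 19 of the 35 mitosis genes that had a promoter sequence (54.3%), against 8.89% of 12167 tested genes with one, 14.0% of the lowered genes and 24.6% of the genes lower than with nutlin-3a alone. The E2F letters were present in 5 of 29 replication genes (17.2%) against 1.62% of all, and in 1.07% of the genes lower than with nutlin-3a. The C/EBP-ATF element (TGATGNAAT), through which ATF4 acts, was found in 1 of 79 genes of the ISR lists and 0.485% of all promoters in this window. A match describes letters in a window and shows no binding.

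Few genes of protein synthesis and respiration were called. Of 80 cytosolic ribosomal protein genes RPS27L alone was raised (0.88), a paralog that is a p53 target rather than a standard ribosomal component, and the median was -0.01. None of 77 mitochondrial ribosomal protein genes and none of 73 respiratory chain and ATP synthase genes was called, with medians of -0.09 and 0.05, by edgeR or by DESeq2 and the other alternatives; at an unadjusted p under 0.05 there were 34 and 23. FN1 (fibronectin), which took the most counts of any gene, was at 68673 and 64793 CPM in DMSO and 67801 and 65731 CPM in the combination. Of 32 lysosomal genes FUCA1, GAA and CTSK were raised, and of 28 autophagy genes 5 were, led by GABARAPL1, a carrier of the autophagosome membrane, at 1.48. All 21 chaperones and folding genes of the endoplasmic reticulum had positive values (median 0.43), and 5 passed the test: ERN1, HERPUD1, HYOU1, HSPA5 and SYVN1. Cytosolic heat shock chaperones gave 0 calls of 13 by edgeR (5 at an unadjusted p under 0.05, and up to 2 raised or 1 lowered in the alternatives, DESeq2 included). Among 24 cholesterol genes HMGCS1, IDI1, MVK and INSIG1 were lowered and TM7SF2 was raised.

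Several surface and matrix genes fell in the combination, and CDH6, HAS2 and COL17A1 were lower than with either drug alone. CDH6, a type II cadherin, was at 1064 and 780 CPM in DMSO, 749 and 986 CPM with nutlin-3a, 388 and 571 CPM with GSK2830371, and 267 and 343 CPM in the combination. The combination was 3.02-fold below DMSO (edgeR adjusted p = 9.94e-06) and below nutlin-3a by 1.51 on the log2 scale. HAS2, which makes hyaluronan, showed the same order, with 16.03 and 17.8 CPM in DMSO, 15.98 and 14.3 CPM with nutlin-3a, 7.83 and 8.85 CPM with GSK2830371 and 4.27 and 3.84 CPM in the combination. COL17A1, a hemidesmosomal collagen, fell by 1.01 with both drugs while it was 0.02 with nutlin-3a and -0.30 with GSK2830371. HMMR, a hyaluronan-binding protein of the mitotic spindle, fell by 2.17 and THBS1, a secreted glycoprotein, by 1.12, and both also fell with nutlin-3a alone, by 1.09 and 0.87. Of 45 collagen and laminin genes, 6 were raised and 4 lowered, and VIM, the mesenchymal filament, was at 6703 and 7001 CPM in DMSO and 5463 and 5149 CPM in the combination.

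Signalling and secreted genes were mixed. Of 19 inflammatory genes of the senescence secretome, those raised included IL1A, IL1B and IL6, and CXCL1 was lowered; IL1B went from a mean of 732 to 1275 CPM. Of 28 interferon-stimulated genes, 5 were raised and 3 lowered, and the most raised, TAP1 (1.68) and TRIM22 (1.51), are also direct p53 targets. MYC fell by 0.77 in the combination and by 1.00 with nutlin-3a. EPHA2, a receptor kinase, rose from a mean of 150 to 321 CPM, and 15 of 17 genes of the MAPK output list were not called. PTGES, which makes prostaglandin E2, was at 65.4 and 55.2 CPM in DMSO, 118 and 147 CPM with GSK2830371 alone, and 88.9 and 108 CPM in the combination. Among long noncoding RNAs PVT1, MALAT1, NEAT1, MIR22HG and LINC-PINT were raised and SNHG1 lowered; MALAT1 went from 87.7 to 225 CPM in the mean. Of 9 tested genes of the thyroid list 4 were raised, the iodide transporters SLC5A5 (2.56) and SLC26A4 (1.38), TG (1.12) and DUOX1 (0.87), and the transcription factor HHEX was lowered (-1.08), with 2 to 4 raised over the alternatives. PAX8 was at 766 and 798 CPM in the combination, where the 9 genes summed to 810 and 845 CPM, so all other members together held a small part. The list's median log2 fold change was 0.14 with both drugs and 0.76 with nutlin-3a alone. In the direct test 0 members were higher than with nutlin-3a and 1 was lower.

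A small set went from near absence to expression. With less than 0.2 CPM in both DMSO libraries and more than 1 CPM in both combination libraries, 13 genes qualified, and 2 went the opposite way (E2F2 and LINC00669). TREM2, a receptor best known in microglia, had 0 and 0 counts in DMSO and 47 and 51 counts in the combination, which is at least 18.01-fold higher when DMSO is set to 3 counts per library. SULF2, which edits heparan sulfate, had 2 and 2 counts against 150 and 161, and CXCR2, a chemokine receptor, 1 and 0 counts against 59 and 49. KANK3, SLC52A1, FETUB, ASPA, F5, LRMP, MUC19, OPCML, POU3F1 and LOC101927501 are the rest.

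K1 was compared with TPC1 by a test of the difference between their combination effects. The effect was higher in K1 for 1991 genes (11.9% of 16738) and lower for 2316 (13.8%), and with scaling by library size alone the split was 2562 against 1867. Most p53 targets rose less in K1: 13 of 17 apoptosis targets and 22 of 27 metabolism targets of p53 had a lower effect in K1, and 0 a higher one. CDKN1A rose by 3.76 in K1 and 6.50 in TPC1 (difference -2.74 ± 0.15, edgeR adjusted p = 1.13e-09). DDIT3 rose by 0.89 in K1 and 5.37 in TPC1 (difference -4.47), whereas for ATF4 the difference was 0.25 ± 0.12 and not called (edgeR adjusted p = 0.120). HMOX1 rose by 0.67 in K1 and 2.35 in TPC1 (edgeR adjusted p = 0.000604 for the difference). Mitosis genes fell less in K1, with medians of -2.06 and -4.73 and a called difference for 39 of 42. TP73 went the other way, at 6.53 in K1 and 3.42 in TPC1. In the prostaglandin list 7 of 9 genes had a higher effect in K1, PTGES by 1.98.

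**Figure D5:**
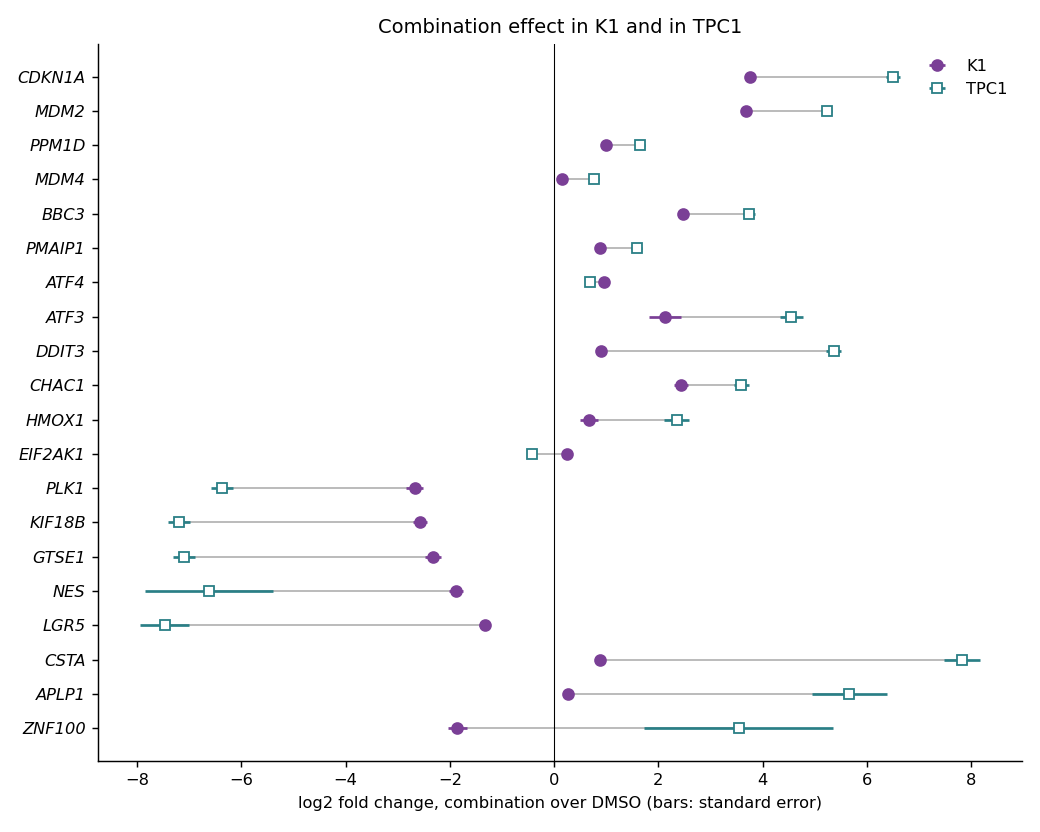
Combination effect on 20 genes (horizontal axis, log2 fold change over DMSO, bars are SE of the fit) in K1 (filled circles) and in TPC1 (open squares). CDKN1A, DDIT3 and HMOX1 rose less in K1 (3.76, 0.89 and 0.67) than in TPC1, the difference for ATF4 was not called, and PLK1, KIF18B and GTSE1 fell less in K1; TPC1 values of NES, LGR5, CSTA, APLP1 and ZNF100 rest on at least 1 group with counts near 0.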

How the data were processed

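Poly(A)+ strand-specific RNA libraries of K1 and TPC1 cells were analysed from the HTSeq count table that the authors deposited: whole-number read counts per gene symbol, not normalized. The submitters' processing notes name TopHat2 2.0.13, Bowtie2 2.2.3.0, SAMtools 1.3.1, Picard 1.129 and HTSeq 0.6.1, and the builds GRCh37 and hg19. Groups came from the sample labels; 4 TPC1 columns carry a replicate number absent from those labels and were placed by line and treatment.

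Genes above 0.1 CPM in at least 2 libraries were kept (15900 of 25369 in K1; 16738 in both lines). edgeR 4.0.16 (R 4.3.3) with TMM scaling and its quasi-likelihood test was fitted to all 8 K1 libraries (4 residual degrees of freedom), and to all 16 for the difference between lines; p-values were Benjamini-Hochberg adjusted over all genes, and two-sided. Fold changes are fitted log2 values with SE derived from the test statistic. CPM values use TMM-scaled library sizes. The fit was tested on simulated counts. DESeq2 1.42.0 was an alternative.

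Gene lists (55), motifs and members were chosen with earlier results of these data known. Named genes were the 12 largest changes each way (at least 5 CPM), up to 4 called genes per list (at least 1 CPM), 11 genes of p53, the ISR and heme, the 5 largest differences each way from TPC1, and the 5 genes with most counts; others named were chosen after their values were seen. Positions are from GENCODE lifted to GRCh37 (90.8% of symbols matched), promoters from RefSeq on GRCh38.p14. Sequence copies shared among ZNF, histone and other families could split reads. A few genes that the rule would name are not reported here.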

Additional observations from a re-analysis of the deposited data

Results flagged for a closer look

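The test of the difference between lines singled out 1991 genes whose combination effect was higher in K1 than in TPC1 and 2316 for which it was lower. Values below are differences of log2 fold changes, K1 minus TPC1, each past the threshold in edgeR's fit over both lines. Among the p53 genes the effect was lower in K1 for CDKN1A (-2.74), MDM2 (-1.56), BBC3 (-1.26), PPM1D (-0.66) and MDM4 (-0.61). Among the ISR and heme genes it was lower in K1 for DDIT3 (-4.47), ATF3 (-2.43) and HMOX1 (-1.68) and higher for EIF2AK1 (0.67), which was not called in K1 itself.

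The largest differences upward were DSC3 (8.61), LGR5 (6.14), GTSE1 (4.78), NES (4.75) and KIF18B (4.63). GTSE1 and KIF18B, both of mitosis, fell in both lines, from 112 and 107 CPM to 0.730 and 0.831 CPM of GTSE1 in TPC1. The largest differences downward were UNC13A (-8.98), CSTA (-6.95), CEACAM1 (-6.05), APLP1 (-5.40) and ZNF100 (-5.40). UNC13A, a synaptic release factor, went from 0.185 and 0.126 CPM to 170 and 142 CPM in TPC1 and from 4.65 and 3.53 CPM to 8.30 and 8.58 CPM in K1. CEACAM1, an adhesion molecule, went from 1.11 and 1.05 CPM to 8.80 and 8.76 CPM in K1. For DSC3, NES and ZNF100 the DMSO and combination libraries of TPC1 held at most 0.308 CPM, and for LGR5, APLP1 and CSTA the lower of these TPC1 groups held at most 0.042 CPM, so these fitted differences depend on the prior count and are no bounds.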

How the results depend on the processing

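The 1211 raised and 1287 lowered genes stayed within 1.5 times of these counts in all alternatives: 947 to 1311 raised and 1164 to 1327 lowered, with DESeq2's Wald test giving the fewest, 947 and 1164. No gene was called in the opposite direction in any of the 17. With scaling by library size alone 1207 of the 1211 and 1193 of the 1287 were called again. Against nutlin-3a the calls were fewer and less stable: DESeq2 gave 108 higher genes in place of 184, and leaving out each library in turn gave 87 to 195 higher and 140 to 252 lower. The lowest values, 87 and 140, came without nutlin-3a replicate 2, and 113 and 105 higher genes were left without combination replicates 1 and 2. With scaling by library size alone the split against nutlin-3a was 228 higher and 196 lower.

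Deviations of same-numbered K1 libraries from their group means, over 12544 genes, correlated between 0.139 and 0.335 among the 3 treated groups and between -0.321 and -0.257 for each of these with DMSO. Not every pair was thus above 0.1, so the numbers were not taken as pairs. Adding a replicate block left 1184 genes up and 1282 down against DMSO, 168 and 237 against nutlin-3a, 993 and 1062 against GSK2830371, and 1966 and 2288 for the difference between lines, with the block in K1 alone; no count moved by over 1.5 times. With the numbers of the DMSO libraries crossed, a choice made after seeing the data, 1260 and 1327 were called against DMSO, 232 and 274 against nutlin-3a, and 1049 and 1117 against GSK2830371.

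Of 178 named genes, 152 kept both their direction and their call under every alternative. FN1 and GAPDH, near no change, turned sign: FN1 to -0.0005828 (DESeq2 size factors), -0.0005827 (DESeq2), -0.00166 (compared groups only), and GAPDH to -0.00117 (compared groups only). Leaving out single libraries gave FN1 between -0.041 and 0.0433 (-0.0257 without combination replicate 1) and GAPDH between -0.0447 and 0.0428 (-0.0307 without DMSO replicate 1). Calls that included SLC6A9, ASNS, HMOX1, CYR61, CTGF and LUM were lost with DESeq2, and those of LUM, SLC6A9 and ID3 were lost in at least 4 alternatives. Without DMSO replicate 1 the calls of MTHFD2, TXNRD1, STC2, CTSK, CDKN2D, COL14A1 and HAS3 were lost as well, without DMSO replicate 2 those of TM7SF2, ACTA2 and HIST2H2BE, without combination replicate 1 those of HSPA5, GGCT and HAS3, and without combination replicate 2 those of PTGES, TM7SF2, CTSK, HIST1H2AC, HIST2H2BE, COL14A1 and TWIST1. Counts of 0, as for TREM2 in DMSO, limit a fold to a lower bound.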

Other observations

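Zinc finger genes of 1 stretch of chromosome 19 stood apart from the rest of the family; the stretch was chosen after the values were seen. Of 442 tested ZNF genes 30 were raised and 39 lowered. Between positions 19779605 and 24312770 (GRCh37), a range set by the first and last tested member, which holds a tandem cluster of KRAB zinc finger genes, 13 of 24 were lowered and 0 raised, with a median log2 fold change of -0.76. Elsewhere on chromosome 19, 10 of 175 were lowered and 19 raised (median 0.13), and on other chromosomes 16 of 242 and 11. ZNF100 went from 6.50 and 7.47 CPM to 1.64 and 2.21 CPM, ZNF85 fell by 1.66, ZNF714 by 1.38 and ZNF738 by 1.13. With nutlin-3a alone the log2 fold changes of these genes were -1.68, -1.28, -0.95 and -0.96. Among the lowered members ZNF724P, ZNF93, ZNF726 and ZNF681 held under 1 CPM in both groups. ZNF91, ZNF708 and ZNF493 in the same stretch were not called, and of 10 tested genes there that are not ZNF genes 1 was raised and 0 were lowered. Members of the cluster are related copies, and how the counting divided reads among them was not tested.

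Clustered histone genes, most of whose mRNAs lack a poly(A) tail, were seen at low levels: of 43 tested, 5 were raised and 4 lowered. HIST1H2BD went from a mean of 2.74 to 5.12 CPM and HIST1H2AC from 3.62 to 6.02 CPM. Called genes were of similar transcript length and base composition to the rest, with medians of 1551 bases and 50.2% GC for raised genes, 1459 bases and 49.2% for lowered genes, and 1330 bases and 49.96% for all tested.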
